A study of Homo sapiens with 6 samples.

Results

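The transcripts described here are those of 50 genes that drive cells through DNA replication and mitosis, out of 60675 genes counted. They were listed by name and are given apart, by known role, as 23 genes of the G1/S transition and DNA replication (S-phase genes) and 27 genes of G2 and mitosis (mitotic genes). The measurements came from MDA-MB-231 cells, from 3 wells that received vitamin C (sodium ascorbate, 100 μM) for 3 days and 3 control wells to which none was added. MDA-MB-231 is an established human triple negative breast cancer line, and both groups were grown in 6-well plates with no further treatment named. RNA depleted of ribosomal RNA was sequenced in paired ends, aligned to hg38 by the authors and deposited as raw counts per Ensembl gene. The methods describe the wells of a group as wells of the same experiment and do not say whether the sequenced ones came from repeats of it, so p-values cover only how far these wells differ, a spread that may be technical.

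A dividing cell first commits to replication, when D- and E-type cyclins with their kinases release the E2F transcription factors from the retinoblastoma protein. E2F then drives the genes that load the MCM helicase onto replication origins and those that supply nucleotides and histones. After replication, the transcription factors B-MYB and FOXM1 act on genes of G2 and mitosis, whose products condense chromosomes, build the spindle, hold the cell until chromosomes are attached, and then mark cyclin B for destruction. Transcripts of many of these genes, though not of all, rise and fall with the cycle. In a population of cells such transcripts are widely read as a measure of how many cells divide. In RNA from whole wells, fewer cells in a phase and less RNA per cell in that phase cannot be told apart.

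Of the 50 genes, 6 passed the test, which is 12% of them against 7.08% of all 15261 genes tested. MYBL2 and CDC25B rose after vitamin C, and GINS2, CCND1, SLBP and UBE2C fell. The count over all genes, 549 higher and 531 lower, depended on single libraries, with 69 higher and 59 lower without control 1, 81 and 61 without control 2, 305 and 388 without control 3, 231 and 157 without vitamin C 1, 272 and 231 without vitamin C 2, and 942 and 958 without vitamin C 3. The test was the quasi-likelihood test of edgeR, adjusted over all genes by the Benjamini-Hochberg method, with a threshold of 0.05. The same 6 genes also passed in DESeq2, as did 6.34% of all genes in both tools, 3.36% lower and 2.98% higher. Among the S-phase genes 3 of 23 were lower and none was higher, against 3.48% of all genes lower and 3.60% higher. No S-phase gene was higher in DESeq2 or at an unadjusted p under 0.05 either. Among all protein-coding genes with a mean of at least 5 CPM the shares were 4.48% lower and 3.78% higher. Among the mitotic genes 1 of 27 was lower and 2 were higher, and DESeq2 called 3 lower and 3 higher, against 6.36% and 4.35% of the genes it tested.

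Expression is given as CPM, the share of a library's gene counts scaled by TMM factors, and each difference as a log2 fold change (vitamin C over control) and its standard error (SE). The S-phase genes had a median log2 fold change of -0.14 and 18 of 23 lay below 0. The mitotic genes had a median of -0.03 and 15 of 27 lay below 0. Over all genes tested the median was 0.02 and 47.6% lay below 0. In the plot of log2 fold changes by gene, most S-phase estimates lie left of 0 while the mitotic ones spread to both sides.

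**Figure D1:**
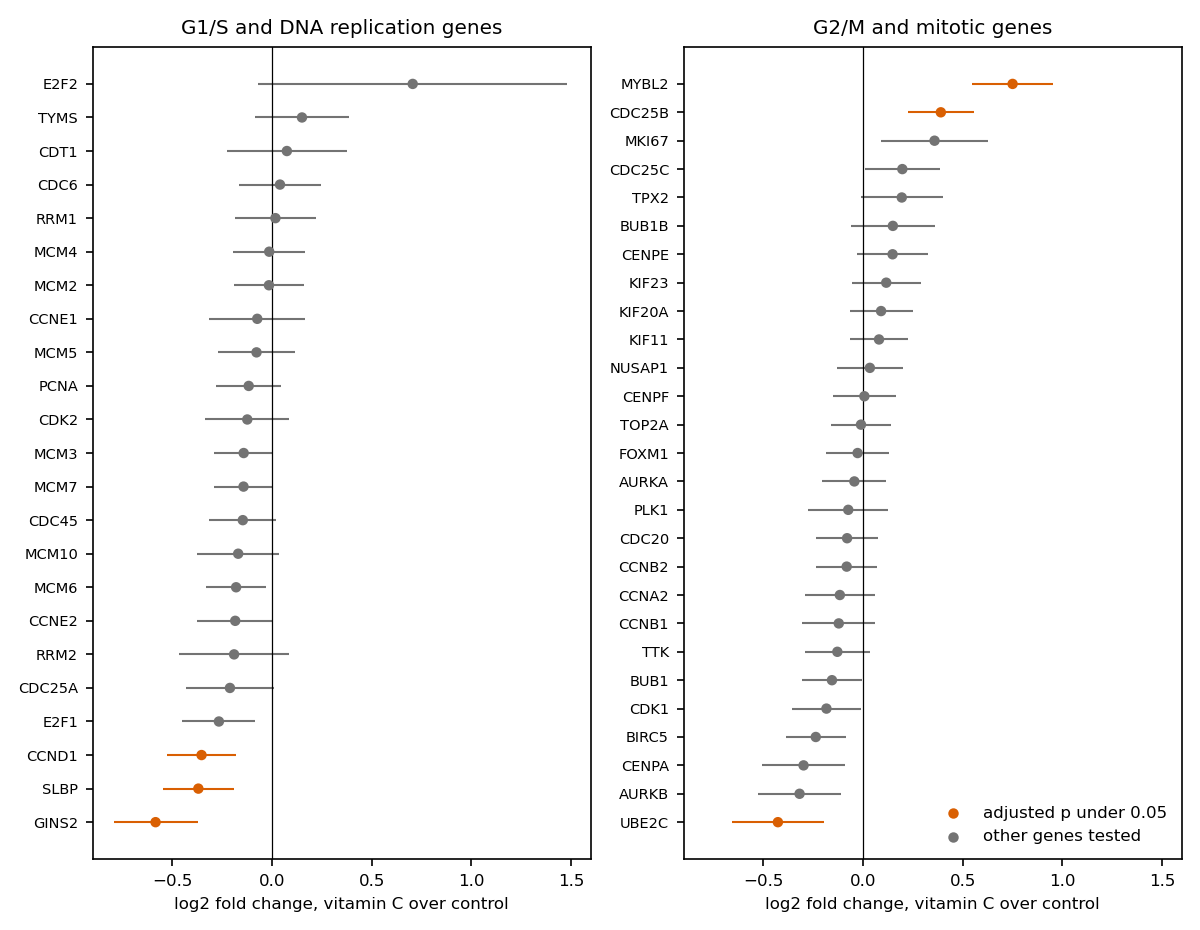
Log2 fold change (vitamin C over control) of the 23 G1/S and DNA replication genes on the left and the 27 G2/M and mitotic genes on the right, sorted by size. Each point is the edgeR estimate from 3 wells a group with its 95% confidence interval, and orange marks an adjusted p under 0.05. GINS2, SLBP and CCND1 are orange at the bottom left, while on the right MYBL2 and CDC25B are orange at the top and UBE2C at the bottom.

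Reads counted in genes were 13434130 to 19553914 in the vitamin C libraries and 17664345 to 22373591 in the control libraries. Unmapped read pairs made up 24.7% to 49.5% in the vitamin C libraries and 24.2% to 34.4% in the control libraries. TMM factors ranged from 0.972 to 1.02, and the 50 genes held 1.55% to 1.62% of gene counts in vitamin C wells and 1.56% to 1.61% in control wells. VIM and AXL, expressed by this line, were at 854 CPM or more in every well, ESR1 had no count in any library, and PGR, CD3E, PTPRC and CD68 had 5 counts or fewer in each. PECAM1, an endothelial marker, was higher after vitamin C at 1.88 to 2.16 CPM against 0.569 to 1.19 CPM in control wells (edgeR adjusted p = 0.0439, DESeq2 0.0675), and its part in other results was not tested.

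The 50 genes differed far more in abundance from each other than between the groups. Per kb of exon, TOP2A, the topoisomerase that untangles replicated DNA, was the most abundant at 248 ± 10.2 CPM per kb after vitamin C and 249 ± 5.17 in control cells (SD, n = 3 each). It was followed in control cells by CCNB1, encoding cyclin B1, at 181 ± 17.7 after vitamin C and 197 ± 8.76 in control cells. PCNA, the sliding clamp of DNA polymerases, came next at 169 ± 6.24 CPM per kb after vitamin C and 183 ± 11 in control cells. The SDs of PCNA and CCNB1 overlapped in both groups. The lowest level belonged to E2F2, an activating E2F, at 0.297 ± 0.118 after vitamin C and 0.181 ± 0.0732 in control cells, which rested on a mean of 22.8 counts per library. Every other S-phase and mitotic gene averaged 4.31 CPM per kb or more in control cells.

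**Figure D2:**
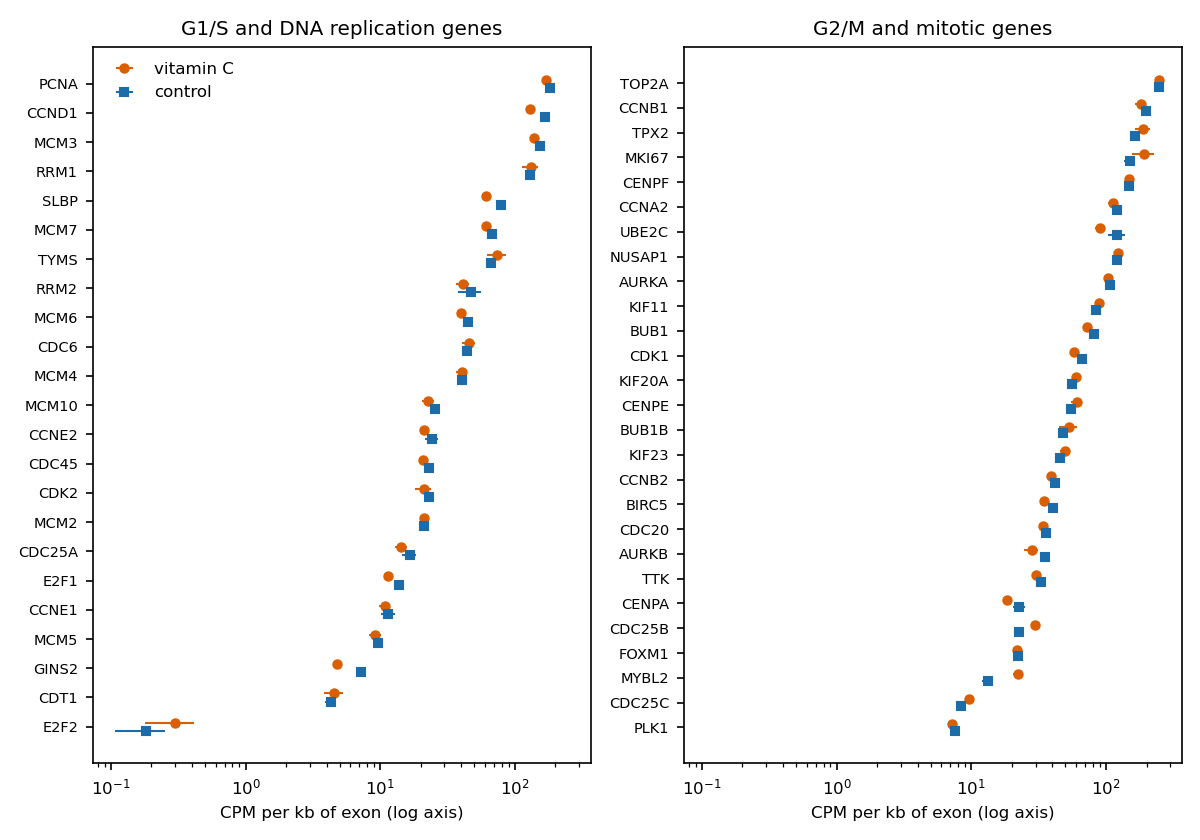
Level of each gene as CPM per kb of exon on a log axis, sorted by the level in control cells, for the G1/S and DNA replication genes (left) and the G2/M and mitotic genes (right). Points are means of 3 wells and bars are SD. TOP2A leads at 248 after vitamin C and 249 in control cells and E2F2 is lowest at 0.297 after vitamin C and 0.181 in control cells.

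The promoters of GINS2 and MYBL2, the genes with the largest fall and the largest rise that passed the test, are shown because one gene belongs to replication and the other acts on mitotic genes. Each window runs from 250 bases before to 50 bases after the RefSeq start (GRCh38.p14), on the strand of the gene. Capitals mark the letters CCAAT, an NF-Y box, and a core of the E2F motif (TTCCCGC and its variants TTGGCGC and also TTCGCGC and lastly TTGCCGC), on either strand. The letters TTTGAA, the CHR element of mitotic promoters, were searched too.
GINS2, chr16:85688905-85689204, minus strand: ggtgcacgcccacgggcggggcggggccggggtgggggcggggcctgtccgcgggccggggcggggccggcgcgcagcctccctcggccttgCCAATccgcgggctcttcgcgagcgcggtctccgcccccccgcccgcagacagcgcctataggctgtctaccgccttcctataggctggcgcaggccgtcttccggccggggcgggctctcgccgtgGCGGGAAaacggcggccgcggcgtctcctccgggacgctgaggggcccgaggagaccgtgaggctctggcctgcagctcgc
MYBL2, chr20:43666864-43667163, plus strand: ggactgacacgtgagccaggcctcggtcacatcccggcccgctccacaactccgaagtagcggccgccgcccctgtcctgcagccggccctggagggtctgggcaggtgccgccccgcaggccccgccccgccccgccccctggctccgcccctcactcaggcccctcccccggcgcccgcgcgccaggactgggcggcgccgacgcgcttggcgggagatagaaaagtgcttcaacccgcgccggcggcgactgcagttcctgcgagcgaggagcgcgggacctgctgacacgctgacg

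The GINS2 window holds 1 CCAAT and 1 E2F match, and the MYBL2 window has no exact match to these letters. The MYBL2 window does hold ttggcgg, which differs from the searched TTGGCGC only in the last base and was not counted. RefSeq windows were at hand for 39 of the 50 genes, and the first listed window of each gene was searched. CCND1 and UBE2C, which passed the test, had no window and could not be searched. The E2F letters were in 13 of 18 S-phase windows and 6 of 21 mitotic windows, against 13.1% of 27305 windows of all genes. The CHR letters were in 1 of 18 S-phase windows and 12 of 21 mitotic windows, against 15.4% of all, and CCAAT was in 12 of 18 and 16 of 21, against 35.7%. The test was passed by 2 of the 19 genes with E2F letters (GINS2 lower and CDC25B higher), 1 of the 28 with CCAAT (GINS2) and none of the 13 with CHR letters, against 7.08% of all genes tested. A match of letters is a description of the window and not of a binding site, and a window without a match may still hold one.

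Among the genes that commit cells to replication, CCND1, encoding cyclin D1, fell after vitamin C. CCND1 (chromosome 11, 69641156 to 69654474) was at 637, 584 and 637 CPM in the vitamin C wells and at 860, 764 and 750 CPM in the control wells. All vitamin C wells lay below all control wells (log2 fold change -0.35, SE 0.08, edgeR adjusted p = 0.0284). CCND1 did not pass without vitamin C 1 (adjusted p = 0.0664), vitamin C 2 (0.0532), control 1 (0.113) or control 2 (0.083). E2F1, the first described E2F factor, was at 31.8, 28.8 and 31.9 CPM after vitamin C and at 36.7, 36.2 and 38.4 CPM in control wells. Its wells also lay apart, but it missed the threshold in edgeR (log2 fold change -0.27, adjusted p = 0.0702) and in DESeq2 (adjusted p = 0.0733).

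None of the other genes of the same switch passed the test. CCNE2, a cyclin E, was at 97.0, 95.04 and 89.4 CPM after vitamin C and at 120, 101 and 99.6 CPM in control wells, with a log2 fold change of -0.18 (edgeR adjusted p = 0.194). Its exons share 37% of their length with INTS8 on the opposite strand, and reads in that stretch cannot be assigned without the strand setting. Shared stretches were 23.6% of MCM2, 15.9% of FOXM1, 14.5% of CDK2, 11.6% of PLK1 and 10.4% of CCND1. CDC25A, the phosphatase that frees CDK2, had a log2 fold change of -0.21, CDK2 itself one of -0.12 and CCNE1 one of -0.07, and for these 3 genes the wells of the groups overlapped. E2F2 was the only 1 of these 7 genes with an estimate above 0, at 0.71 with a 95% interval from -0.07 to 1.48.

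Of the genes that license and fire origins, GINS2 fell and the MCM genes showed no change that passed. GINS2, a subunit of the GINS complex that binds the helicase (chromosome 16, 85676198 to 85690073), was at 16.2, 14.8 and 15.3 CPM after vitamin C and at 24.7, 21.8 and 23.03 CPM in control wells. The groups did not overlap, and the level was 0.667 times that of control cells (log2 fold change -0.58, SE 0.10, edgeR adjusted p = 0.0106). GINS2 passed without any single library (adjusted p = 0.00898 to 0.0473). The 6 subunits of the MCM2 to MCM7 helicase had log2 fold changes of -0.18 to -0.01, all below 0. MCM6 was at 159, 170 and 165 CPM after vitamin C and at 191, 185 and 183 CPM in control wells (edgeR adjusted p = 0.117). MCM3, the most abundant of them per kb, was at 511, 491 and 509 CPM after vitamin C and at 562, 541 and 565 CPM in control wells (edgeR adjusted p = 0.198). In both of these, and in MCM7, every vitamin C well lay below every control well, which held in the lower direction for 16.6% of all genes tested. Across all S-phase genes, 8 of 23 had such a separation downward and none upward, against 15.7% of all genes upward. Among the 27 mitotic genes 8 were separated downward and 4 upward. The loading factors CDC6 and CDT1 were at log2 fold changes of 0.04 and 0.07, while CDC45 and MCM10, which act when the helicase is switched on, were at -0.15 and -0.17, and in all 4 the wells overlapped.

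SLBP, the protein that binds the stem-loop of replication-dependent histone mRNAs, was the third S-phase gene that fell. SLBP (chromosome 4, 1692731 to 1712344) was at 122, 109 and 114 CPM after vitamin C and at 162, 145 and 138 CPM in control wells (log2 fold change -0.37, SE 0.08, edgeR adjusted p = 0.0284). The groups did not overlap, but SLBP did not pass without vitamin C 1 (adjusted p = 0.0519), vitamin C 2 (0.061), control 1 (0.108) or control 2 (0.0836). Mature histone mRNAs of this kind lack a poly(A) tail, and the libraries were made by depleting ribosomal RNA. Of 66 replication-dependent histone genes, 36 passed the filter on low counts, 15 of these (41.7%) were lower and none was higher, against 3.48% of all genes lower and 3.60% higher. Their summed level was 4111, 3411 and 4111 CPM after vitamin C and 4560, 4860 and 4889 CPM in control wells. Vitamin C 2 had the lowest sum, and how far the 15 calls rest on single libraries is not given here. Histone genes have near-identical copies, so single members are uncertain.

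The other genes of the replication fork and of nucleotide supply did not pass. PCNA was at 234, 247 and 230 CPM after vitamin C and at 269, 261 and 240 CPM in control wells (log2 fold change -0.12, edgeR adjusted p = 0.335). RRM2, the regulated subunit of ribonucleotide reductase, was at 373, 418 and 337 CPM after vitamin C and at 526, 383 and 378 CPM in control wells, and control 1 stood above the other 5 wells (edgeR adjusted p = 0.353). RRM1, its partner subunit, had a log2 fold change of 0.02 with a 95% interval from -0.18 to 0.22. TYMS, which makes thymidylate, was at 196, 197 and 145 CPM after vitamin C and at 166, 156 and 162 CPM in control wells. Vitamin C 1 and 2 were above every control well and vitamin C 3 below every one, and TYMS passed as higher without vitamin C 3 (edgeR adjusted p = 0.0303). ENOSF1 overlaps 39.9% of the exon length of TYMS on the opposite strand.

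**Figure D3:**
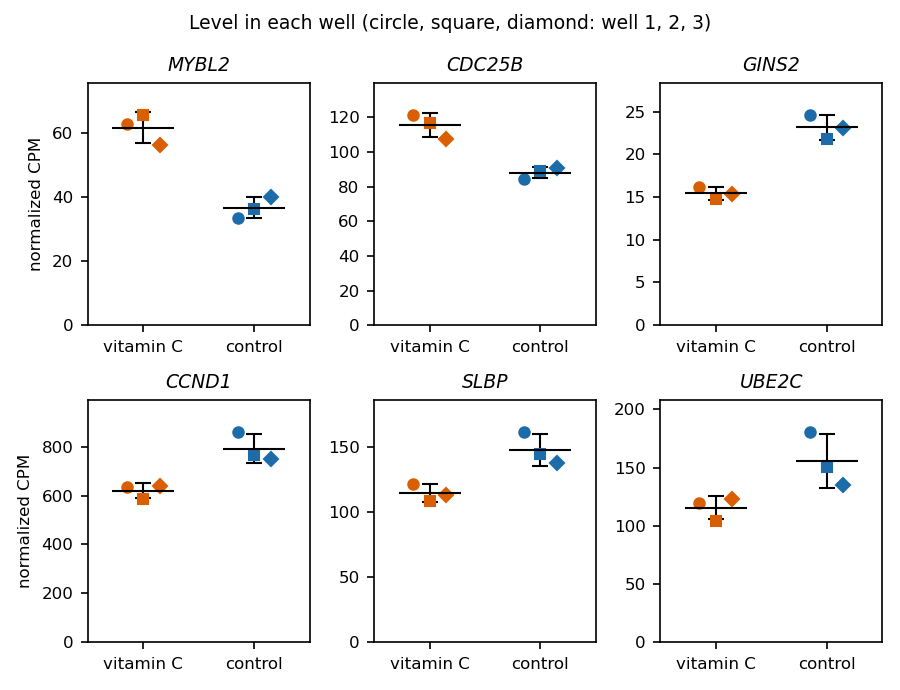
Level of the 6 genes that passed the test in each of the 6 wells, as TMM-normalized CPM on linear axes from 0. Points are wells (circle, square and diamond for well 1, 2 and 3), a horizontal line gives the mean of a group and the bar its SD (n = 3 each). The vitamin C wells of MYBL2 and CDC25B lie above all control wells, and those of GINS2, CCND1, SLBP and UBE2C lie below them.

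Among the mitotic genes, the largest change was a rise of MYBL2. It encodes B-MYB, which joins the MuvB complex and acts ahead of FOXM1 on G2 and mitotic promoters. MYBL2 was placed here by the role of this protein, and when in the cycle its transcript was made was not measured. That no S-phase gene was called higher rests on this placement. MYBL2 (chromosome 20, 43667019 to 43716495) was at 62.9, 65.8 and 56.4 CPM after vitamin C and at 33.4, 36.4 and 40.0 CPM in control wells. The lowest vitamin C well was above the highest control well, and the level was 1.68 times that of control cells (log2 fold change 0.75, SE 0.09, edgeR adjusted p = 0.00327). MYBL2 passed without any single library (adjusted p = 0.000502 to 0.0289). FOXM1 was at 103, 108 and 114 CPM after vitamin C and at 114, 108 and 110 CPM in control wells (log2 fold change -0.03, 95% interval -0.18 to 0.13).

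Of the 8 kinases, cyclins and phosphatases of mitotic entry, CDC25B rose. It removes the inhibitory phosphates from CDK1 at the start of mitosis. CDC25B (chromosome 20, 3786772 to 3806121) was at 122, 117 and 108 CPM after vitamin C and at 84.4, 88.8 and 90.5 CPM in control wells, with no overlap (log2 fold change 0.39, SE 0.07, edgeR adjusted p = 0.0181). It did not pass without vitamin C 1 (adjusted p = 0.0646), control 1 (0.079) or control 2 (0.0751). Its relative CDC25C was at 33.7, 31.7 and 30.8 CPM after vitamin C and at 27.2, 29.5 and 27 CPM in control wells, also apart, but missed the threshold (log2 fold change 0.20, edgeR adjusted p = 0.165).

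The engine that these phosphatases act on showed estimates below 0 that did not pass. CDK1 was at 221, 214 and 244 CPM after vitamin C and at 274, 256 and 241 CPM in control wells (log2 fold change -0.18, edgeR adjusted p = 0.165). Its cyclins followed with log2 fold changes of -0.12 for CCNB1, -0.12 for CCNA2 and -0.08 for CCNB2. For CDK1, CCNB1 and CCNA2 vitamin C 1 and 2 lay below all control wells while vitamin C 3 lay among them. The mitotic kinases PLK1 and AURKA were at -0.07 and -0.04, with 95% intervals from -0.28 to 0.13 and from -0.20 to 0.12.

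Genes that hold and then release the cell at metaphase differed among themselves. UBE2C, the E2 enzyme with which the anaphase-promoting complex marks cyclin B, fell. UBE2C (chromosome 20, 45812576 to 45816957) was at 119, 105 and 123 CPM after vitamin C and at 181, 151 and 135 CPM in control wells (log2 fold change -0.43, SE 0.11, edgeR adjusted p = 0.0381). All vitamin C wells were below all control wells, control 1 was the highest, and the edgeR adjusted p without it was 0.133. UBE2C also did not pass without vitamin C 1 (0.0814), vitamin C 2 (0.0881) or control 2 (0.0965) and with a correction for transcript length and GC content (0.0633). CDC20, the activator of the same complex, was at 66.9, 68.9 and 69.0 CPM after vitamin C and at 76.0, 69.7 and 70.9 CPM in control wells (edgeR adjusted p = 0.502). The complex is held back by checkpoint kinases until chromosomes are attached. BUB1, one of them, was at 459, 471 and 442 CPM after vitamin C and at 504, 499 and 526 CPM in control wells (log2 fold change -0.16, edgeR adjusted p = 0.169). TTK, which starts the checkpoint, was at 143, 127 and 143 CPM after vitamin C and at 149, 155 and 147 CPM in control wells (-0.13, edgeR adjusted p = 0.287). For BUB1 and TTK the wells did not overlap. BUB1B, a part of the inhibitor itself, was at 220, 276 and 212 CPM after vitamin C and at 211, 209 and 218 CPM in control wells (0.15, edgeR adjusted p = 0.344), and vitamin C 2 stood above the rest.

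AURKB and BIRC5 (survivin), partners in the chromosomal passenger complex that corrects chromosome attachment, were both near the threshold. AURKB was at 65.2, 54.3 and 68.9 CPM after vitamin C and at 81.5, 72.9 and 80.9 CPM in control wells. BIRC5 was at 129, 129 and 137 CPM after vitamin C and at 157, 157 and 153 CPM in control wells. In both genes the groups did not overlap. With log2 fold changes of -0.32 and -0.24 they missed the threshold in edgeR (adjusted p = 0.0623 and 0.0564) and passed it in DESeq2 (adjusted p = 0.0281 and 0.0253). CENPA, the histone variant that marks centromeres, was at 34.9, 34.1 and 38.8 CPM after vitamin C and 49.2, 42.6 and 41.1 CPM in control wells, with a log2 fold change of -0.30 (adjusted p = 0.0731 in edgeR and 0.0543 in DESeq2).

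The spindle motors and assembly factors all had estimates above 0, from 0.03 for NUSAP1 to 0.19 for TPX2, and none passed. TPX2, which activates Aurora A on the spindle, was at 657, 779 and 605 CPM after vitamin C and at 597, 564 and 624 CPM in control wells (edgeR adjusted p = 0.209). KIF23, a motor of cytokinesis, was at 298, 340 and 337 CPM after vitamin C and at 299, 284 and 317 CPM in control wells (edgeR adjusted p = 0.369). KIF20A, another, was at 234, 224 and 235 CPM after vitamin C and at 204, 226 and 220 CPM in control wells (edgeR adjusted p = 0.446). KIF11, the motor that separates spindle poles, was the only 1 of the 5 whose wells did not overlap, with an estimate of 0.08. NUSAP1 shares 81.4% of its exon length with another protein-coding model on the same strand and is uncertain.

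MKI67, encoding the proliferation antigen Ki-67 that coats mitotic chromosomes, was the most counted of the 50 genes and split the treated wells. It was at 2568, 2866 and 1977 CPM after vitamin C and at 1798, 1840 and 2142 CPM in control wells. Vitamin C 1 and 2 were above every control well and vitamin C 3 lay within the control range. The log2 fold change was 0.36 (SE 0.12, edgeR adjusted p = 0.0891), DESeq2 called it higher (adjusted p = 0.0386), and without vitamin C 3 edgeR did too (adjusted p = 0.00728). CENPE, a kinetochore motor, was at 627, 642 and 540 CPM after vitamin C and at 524, 540 and 568 CPM in control wells, with the same split. TOP2A and CENPF, a kinetochore protein, had log2 fold changes of -0.01 and 0.01, with 95% intervals from -0.16 to 0.14 and from -0.15 to 0.16.

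Without vitamin C 3, AURKB (edgeR adjusted p = 0.0242), BIRC5 (0.0357) and CENPA (0.0378) also passed, as lower. Wells were split as for MKI67 in several mitotic genes. For 7 of 27, vitamin C 3 lay inside the control range while the other vitamin C wells lay outside it on the same side, above it for MKI67, TPX2, CENPE and BUB1B and below it for CDK1, CCNA2 and CCNB1. No S-phase gene had that pattern, but there vitamin C 2 lay above the control range for 7 of 23 genes, against 1 for vitamin C 1 and 2 for vitamin C 3. The share of all genes with these patterns was not counted, so neither pattern is shown to be particular to these lists. Relative to the control mean, the S-phase median on the log2 scale was -0.17 in vitamin C 1, -0.05 in vitamin C 2 and -0.17 in vitamin C 3, against 0.04, -0.05 and -0.01 in the control wells, so vitamin C 2 lay at the level of control 2. Unmapped read pairs were 40.7% and 49.5% in vitamin C 1 and 2, 24.7% in vitamin C 3 and 24.2% to 34.4% in controls. Mitochondrial mRNA in vitamin C 1 and 2 was 1.79% and 1.71% of gene counts. It was 1.01% in vitamin C 3 and 1.03% to 1.18% in controls. Vitamin C 1 and 2 also had the fewest reads in genes, 13434130 and 14225257, against 17664345 or more in every other library. The part of these differences in the gene values was not tested.

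**Figure D4:**
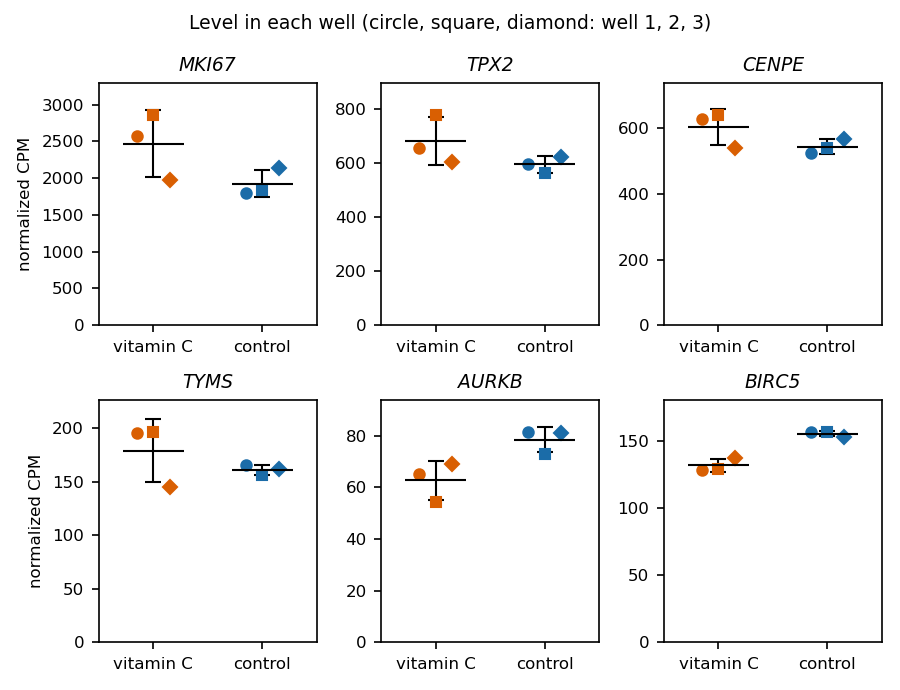
Level of MKI67, TPX2, CENPE, TYMS, AURKB and BIRC5 in each of the 6 wells, as TMM-normalized CPM on linear axes from 0. Points are wells (circle, square and diamond for well 1, 2 and 3), a horizontal line gives the mean of a group and the bar its SD (n = 3 each). In the first 4 genes the diamond of vitamin C 3 is the lowest vitamin C well, at 1977 against 2568 and 2866 CPM for MKI67, while in AURKB and BIRC5 all vitamin C wells lie below all control wells.

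Summed over the list, the S-phase transcripts were at 4342, 4587 and 4169 CPM after vitamin C and at 5076, 4611 and 4693 CPM in control wells, with vitamin C 2 just below the lowest control well. The mitotic transcripts summed to 11770, 12090 and 11050 CPM after vitamin C and to 10840, 10870 and 11490 CPM in control wells, and there the groups overlapped. MKI67, CENPF and TOP2A weigh most in the mitotic sum. Of the 20 S-phase genes that did not pass, 19 had a 95% interval of the log2 fold change within 0.5 of 0 on both sides, and of the 24 such mitotic genes 21 did. That bound is wider than the changes of CCND1, SLBP, CDC25B and UBE2C, so it cannot show that changes of their size were absent. Some of these intervals also excluded 0, among them those of E2F1, MCM6 and BIRC5 below it and of CDC25C above it.

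Further genes of the same processes were counted in the same way. Of 54 further replication genes, 3 fell and none rose, or 5.56% called against 7.08% of all genes, 3.48% of them lower, which is near the background. Their median log2 fold change was -0.13, and 46 lay below 0. At an unadjusted p under 0.05, 20 of them were lower and 1 was higher, against 13.1% and 14.3% of all genes tested. Those that fell were DUT, which removes dUTP (log2 fold change -0.41, edgeR adjusted p = 0.0181), FEN1, the flap nuclease of lagging strands (-0.34, adjusted p = 0.0226), and TK1, a thymidine kinase (-0.28, adjusted p = 0.0457). In all 3 every vitamin C well lay below every control well. Leaving out control 1 or control 2 left 0 of these 54 genes, leaving out vitamin C 1 left 1, vitamin C 2 left 2, and omitting vitamin C 3 gave 10. Of all 15430 genes tested without vitamin C 3, 942 were higher and 958 lower.

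Of 60 further mitotic genes, 2 fell and 1 rose, which is 5% called and again near the 7.08% of all genes. Their median log2 fold change was 0.05, and 24 lay below 0. CKS1B, a small CDK partner, was at 24.1, 22.5 and 28.5 CPM after vitamin C and at 43.8, 36.1 and 37.6 CPM in control wells (log2 fold change -0.64, edgeR adjusted p = 0.0128). MAD2L1, a checkpoint protein, had a log2 fold change of -0.37 (edgeR adjusted p = 0.0316). CIT, a kinase of cytokinesis, was higher (0.33, edgeR adjusted p = 0.0402). Leaving out control 1 left 0 of these 60 genes, leaving out control 2, vitamin C 1 or vitamin C 2 left 1 each, and omitting vitamin C 3 gave 7. That last setting called 942 higher and 958 lower of all 15430 genes tested. Of 28 tested genes of cell cycle inhibition and exit, none passed in edgeR, while 3 were lower and 3 higher at an unadjusted p under 0.05, a level passed by 13.1% of all genes lower and 14.3% higher, and DESeq2 called 1 in each direction. The most abundant of them per kb were RBL1, the p107 pocket protein (log2 fold change 0.15, edgeR adjusted p = 0.173), and CCNG1, cyclin G1 (edgeR adjusted p = 0.927). CDKN1A, the p21 inhibitor, picked out after its values were seen, was at 23.6, 23.8 and 19.5 CPM after vitamin C and at 36.7, 27.7 and 27.6 CPM in control wells (edgeR adjusted p = 0.0519, DESeq2 0.0148).

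**Figure D5:**
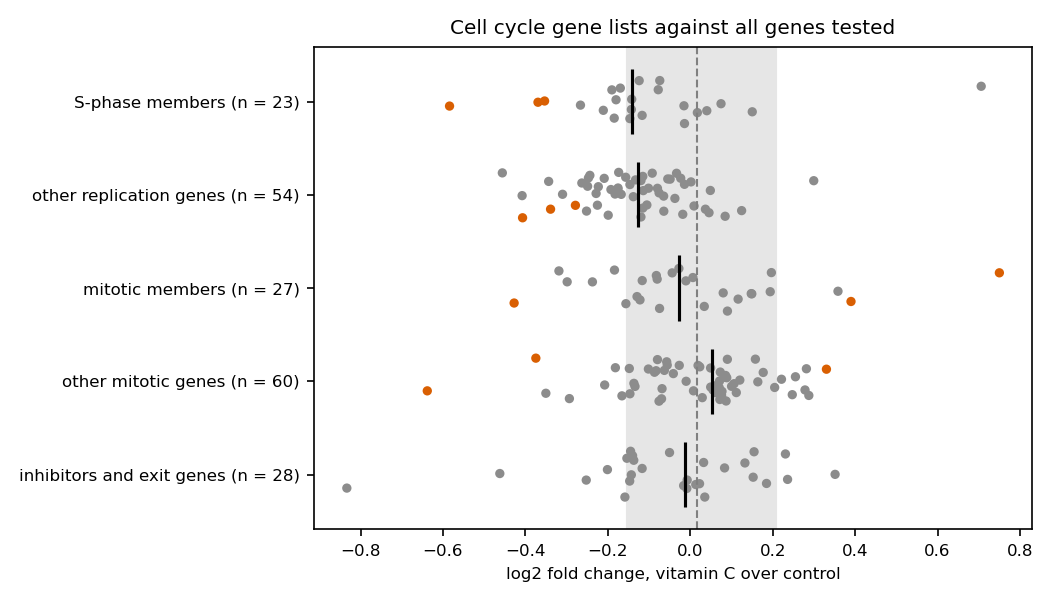
Log2 fold change (vitamin C over control) in the S-phase and mitotic genes and in 3 further cell cycle lists. Points are genes, orange marks an edgeR adjusted p under 0.05, black bars are list medians, the dashed line is the median of all 15261 genes tested and the grey band holds their middle quartiles, from -0.15 to 0.21. The medians of the S-phase genes and the other replication genes, at -0.14 and -0.13, lie left of the dashed line at 0.02.

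Longer transcripts tended to have the higher estimates among the mitotic genes. Spearman's rho between the log2 fold change and the length of the longest transcript was 0.488 over the 27 mitotic genes, 0.098 over the 23 S-phase genes and 0.018 over 15104 tested genes with an annotated transcript. These are correlations across genes that share the same 6 libraries, and genes are not independent replicates. With length and GC content corrected, MYBL2, CDC25B, GINS2, CCND1 and SLBP still passed, UBE2C did not, and E2F1 did (edgeR adjusted p = 0.0377).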

How the data were processed

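RNA from 3 vitamin C and 3 control wells was sequenced after depletion of ribosomal RNA. According to the submitters' processing notes, CASAVA 1.4, Trim Galore, STAR and hg38 were used, and each well has a table deposited by the authors with raw counts for every Ensembl gene. Other tool versions, the annotation release and strandedness: not given in the sources used here. Rows that name no gene (4 per file) were left out. These rows, unmapped reads included, held 50.6% to 69.7% of each file's total.

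Groups were taken from the sample labels. Genes were filtered by edgeR's filterByExpr (minimum count 10), scaled by TMM and tested with the quasi-likelihood test (edgeR 4.0.16, R 4.3.3), with Benjamini-Hochberg adjustment over 15261 genes. DESeq2 1.42.0 and limma 3.58.1 were alternatives. The fit was tested on simulated data made for this comparison: edgeR recovered 82.1% of 1.5-fold and 100% of 2-fold changes over 15293 genes, with 16 false among 204 calls. The biological coefficient of variation was 9.4%. Gene positions came from GENCODE 44 (GRCh38). In each of 10 role groups the 3 genes with the smallest p were given by well, with every further gene called, and in further lists up to 4 called genes, or the 2 most abundant where none was called. The genes and lists were chosen with earlier results of these data known. Alternatives were other scalings, filters, tools and thresholds, a replicate block and leaving out each library. A length and GC correction and thinning to the shallowest library were chosen after seeing the data.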

Additional observations from a re-analysis of the deposited data

How the results depend on the processing

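None of the 6 genes that passed changed direction under any setting tried. The S-phase genes called lower numbered 3, but 0 at an adjusted p under 0.01, 4 at 0.1 and 4 with the length and GC correction. The mitotic genes called lower numbered 1, but 4 with no filter, 3 in DESeq2, 4 in edgeR's exact test, 0 at a threshold of 0.01, 4 at 0.1 and 0 with the length and GC correction. Those called higher numbered 2, but 1 at 0.01 and 3 with no filter, in DESeq2 and at 0.1. The other replication genes called numbered 3, but 12 with no filter, 6 in DESeq2, 7 in the exact test, 0 at 0.01 and 13 at 0.1. They numbered 2 with upper-quartile scaling, with library size only and with thinning. The other mitotic genes called numbered 3, but 6 with no filter, 6 in DESeq2, 5 in the exact test, 0 at 0.01 and 8 at 0.1. They numbered 2 with the replicate block and 4 with thinning. The inhibitors and exit genes called numbered 0, but 1 with upper-quartile scaling, 2 with no filter, 2 in DESeq2, 3 in the exact test, 3 at 0.1 and 1 with the replicate block. The mitotic median was -0.03, and 0.01 with upper-quartile scaling. Over all genes, calls were 549 higher and 531 lower, and 1079 and 1166 with no filter. They were 586 and 857 in DESeq2 and 1022 and 911 in the exact test. At 0.01 they were 49 and 34, and at 0.1 they were 1256 and 1210. With the length and GC correction they were 544 and 468. Totals and list counts thus both moved with the setting, and why was not tested.

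Leaving out single libraries gave 1 to 3 S-phase genes lower and 0 to 1 higher, 0 to 4 mitotic genes lower and 1 to 3 higher, 0 to 10 other replication genes, 0 to 7 other mitotic genes and 0 to 2 inhibitors and exit genes, and the same ranges for the 50 genes called by both tools. Over all genes, leaving out single libraries gave 69 to 942 higher and 59 to 958 lower. The S-phase median ranged from -0.163 to -0.096 and the mitotic median from -0.051 to -0.002. The labels give same-numbered wells only a shared number, and whether such wells were handled together is not stated. Their deviations correlated at -0.016, -0.056 and -0.045, against -0.048 to 0.107 for wells of different numbers. With 3 wells a group these values cannot exclude a pairing. The replicate block changed the call of none of the 50 genes, while over all genes it left 393 higher and 338 lower. With upper-quartile scaling 687 genes were higher and 377 lower, against 549 and 531. E2F2, with 12 counts in its lowest library, gave no value at a minimum count of 50.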
